A study of Canis lupus familiaris with 60 samples.

Results

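The allergen patch sites biopsied 6 hr after application were compared between sensitized and nonsensitized dogs, the sensitizing agent being the house dust mite Dermatophagoides farinae. They gave 12 of the 60 arrays of the series, chosen by the time and treatment in the sample labels, with 6 arrays in each group and 1 biopsy per dog. All 12 animals were Beagles aged 2 to 3 years under the same housing and feeding. The sensitized group held 4 males and 2 females and the nonsensitized group 2 males and 4 females, so sex was not balanced between the groups. The sensitized dogs had been exposed to the mite through the skin and carried mite-specific IgE with positive intradermal tests, which makes them an induced model and not spontaneous atopic dermatitis. Every dog received 75 mg of mite paste at the allergen site and 50 µl of physiologic saline at a control site on the clipped lateral chest. Each dog gave 5 punch biopsies of 8 mm under local anesthesia with lidocaine: untreated skin at 0 hr, and both patch sites at 6 hr and 24 hr. The comparison asked whether early gene expression under the allergen depended on sensitization. The untreated, saline and 24 hr allergen sites of the same dogs served for reference.

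House dust mite allergens carry protease activity and chitin, which skin cells and resident immune cells detect within hours. Keratinocytes, fibroblasts and endothelium then release chemokines, cytokines and matrix-modifying proteins, and endothelial adhesion molecules help leukocytes to leave the vessels. In a sensitized animal, allergen-specific IgE on mast cells can add an immediate reaction, and T cells enter later. A biopsy is a mixture of cells, so fewer cells of a type and less RNA per cell cannot be told apart.

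RNA was hybridized singly to Agilent canine arrays. Each difference below is the sensitized minus the nonsensitized mean on the log2 scale with its standard error from limma, and each adjusted p is limma's over all probes. The standard error rests on a spread pooled over all 10 groups of the series, not on these 12 arrays alone. Levels are given as log2 units of normalized signal, which can be compared between dogs but not between genes. Over the 12 arrays the median processed signal ranged from 81.7 to 133, and 69.3% to 80% of spots were well above background. No slide held allergen arrays of both groups at 6 hr. The sensitized arrays lay on slide 5 (3 arrays), slide 6 (2) and slide 7 (1), and the nonsensitized arrays on slide 4 (4 arrays) and slide 8 (2). Within these 12 arrays, slide and sensitization therefore cannot be told apart. Saline arrays of both groups shared slides 5 and 6, and untreated arrays of both groups shared slides 7 and 8, so a slide term could be fitted with the other sites included. Slide 4 held nonsensitized arrays only, at the saline sites those of dogs 2800, 2802 and 2845, so its term mixes slide with dog. Of the skin markers, the suprabasal keratinocyte genes KRT1 and KRTDAP were bright in both groups, with nonsensitized medians of 17.06 and 18.14.

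No transcript reached the criteria for a differentially expressed gene (DEG, adjusted p below 0.05 and at least 1.5-fold). Of 42086 probes tested for 37570 identifiers, 0 were called in either direction (0%), and the smallest adjusted p was 0.13 (limma, Benjamini-Hochberg). At an unadjusted p below 0.05, 1311 probes (3.12%) had a higher mean in the sensitized dogs and 1255 (2.98%) a lower one. With the 1.5-fold limit added, these counts were 185 probes (0.44%) and 108 probes (0.257%). The difference lay within 1.5-fold for 98.4% of probes, and the median over all probes was 0.00. Complete separation of the groups was seen for 60 probes (0.143%), with each sensitized dog above each nonsensitized dog, and for 54 probes (0.128%) in the opposite order. With the dog entered as a random block, 9 identifiers had a higher and 5 a lower level in sensitized dogs by the DEG criteria, of which none had a gene name here. Without the allergen array of sensitized dog 2839, 3 identifiers were called, all higher.

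**Figure D1:**
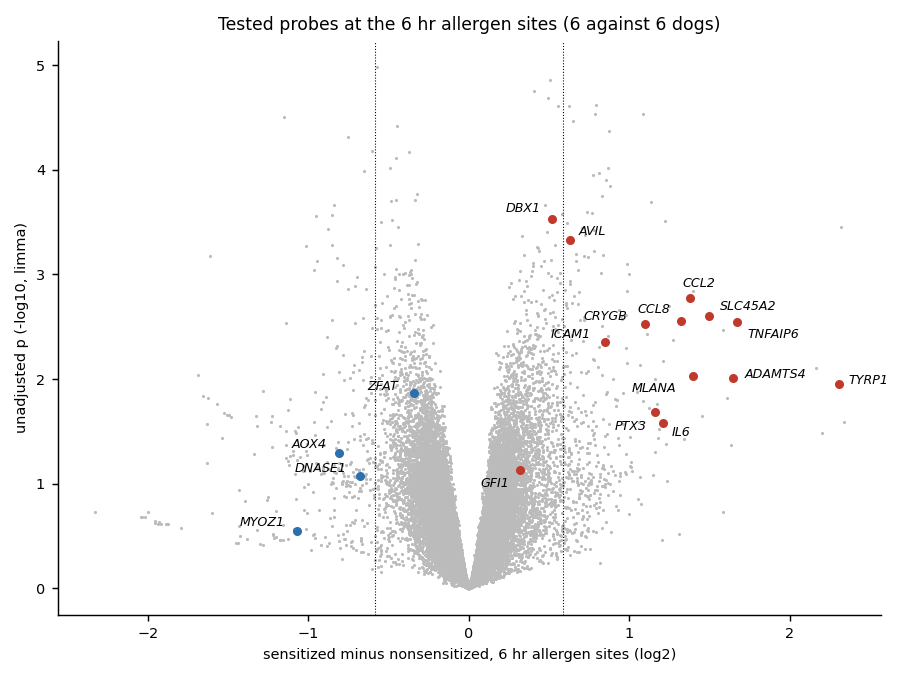
Difference between sensitized and nonsensitized dogs at the 6 hr allergen sites (x axis, log2) against the unadjusted limma p (y axis, −log10) for the 42086 tested probes, with dotted lines at 1.5-fold. Labelled genes are red where the sensitized mean was higher and blue where it was lower; no probe met the DEG criteria, and CCL2, CCL8, TNFAIP6 and ICAM1 lay on the higher side at 0.85 to 1.67.

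Gene names could be given to 1227 of the tested genes, of which 842 were named through RefSeq and 383 through the gene table that the study built from its 24 hr comparison. The second source, which named AVIL, TNFAIP6 and ADAMTS4 among others, favours genes that differed at 24 hr in these dogs. Among all named genes, 79 (6.44%) had a higher mean in sensitized dogs at an unadjusted p below 0.05 and 23 (1.87%) a lower one. The RefSeq names alone gave 32 higher (3.8%) and 18 lower (2.14%), against 46 (12%) and 4 (1.04%) for names from the study's table. By its brightest probe, no named gene separated the groups completely (0%).

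Monocyte-attracting chemokines were among the leading named genes. The level of CCL2, a ligand of CCR2 that recruits monocytes, was 13.10 in the lowest sensitized dog, 13.91 in the median and 15.44 in the highest, compared with 11.62, 12.09 and 14.63 in nonsensitized dogs. The sensitized mean was 2.61-fold higher, a log2 difference of 1.38 ± 0.42 (SE, limma, adjusted p = 0.509). The groups overlapped because 2 nonsensitized dogs lay in the sensitized range, while the other 4 nonsensitized dogs were below every sensitized dog. A probe for another CCL2 transcript gave 1.40 ± 0.42. CCL8, a chemokine of the same gene cluster, showed the same arrangement. Its levels were 9.73, 10.64 and 11.90 in sensitized dogs and 8.05, 8.94 and 11.25 in nonsensitized dogs (lowest, median, highest), and its difference was 1.32 ± 0.42 (adjusted p = 0.568). The dimmer CCL8 probe gave 0.68 ± 0.37.

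CCL3, a macrophage inflammatory protein, was close to background. It was well above background in 6 of 6 sensitized but in only 2 of 6 nonsensitized dogs, with medians of 5.18 and 4.81 and a difference of 0.50 ± 0.18 (adjusted p = 0.721), which was 0.30 without sensitized dog 2855. Of 21 chemokine ligands tested, 4 had a higher sensitized mean at an unadjusted p below 0.05 and none a lower one, beside 6.44% and 1.87% of all named genes, and the list's median difference was 0.31 beside 0.01. CCL3, which passed the filter through the sensitized dogs alone, is 1 of these 4. None of the 21 was a DEG. The list was not uniform. CCL17, the thymus-derived chemokine that attracts Th2 cells, differed by 0.16 ± 0.62, and CCL27, made by keratinocytes, by −0.40 ± 0.25. Among 7 chemokine receptors, CCR4, the receptor of CCL17, was at −0.23 ± 0.12 (adjusted p = 0.796), and at −0.11 with slide as a fixed block.

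**Figure D2:**
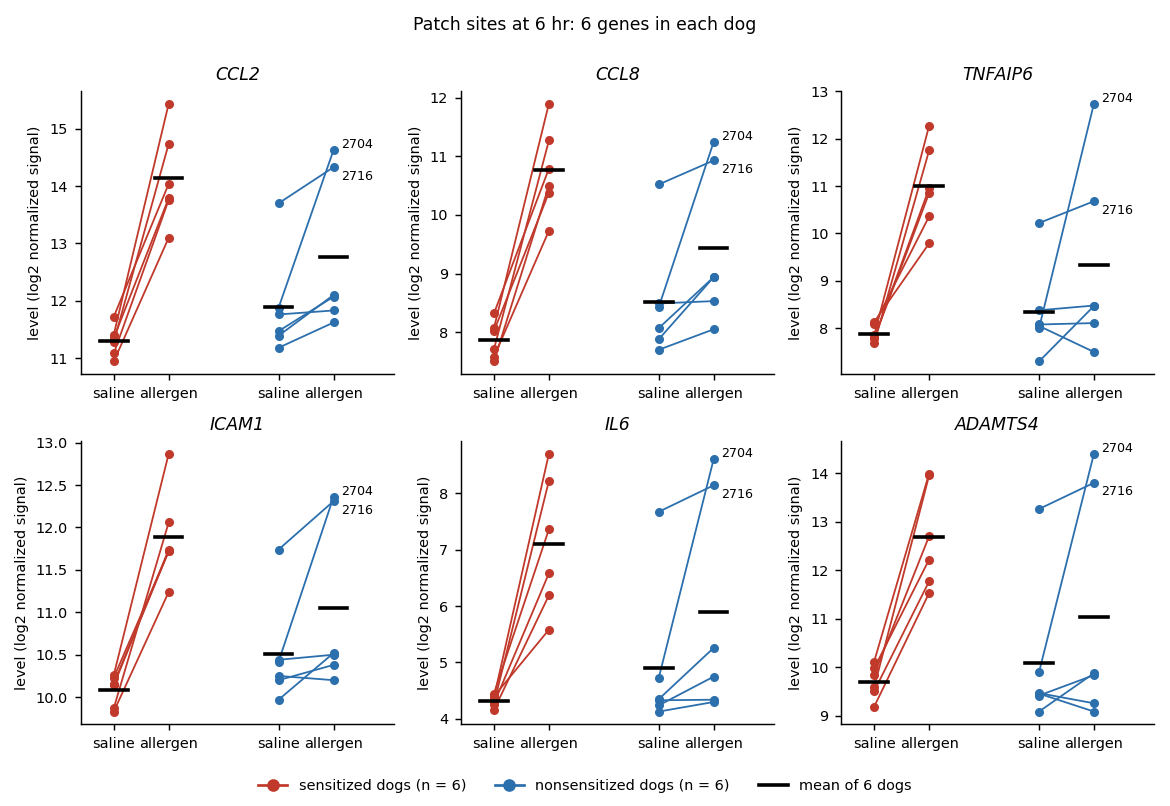
Levels (y axis, log2 normalized signal) of 6 genes at the saline and allergen sites of each dog at 6 hr, joined by lines within a dog, with bars at the mean of 6 dogs. The allergen site was above the saline site in 6 of 6 sensitized dogs for each gene, and at the allergen site nonsensitized dogs 2704 and 2716 were far above the other 4 nonsensitized dogs for CCL2 and ADAMTS4.

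ICAM1, the endothelial ligand for leukocyte integrins, had levels of 11.24, 11.73 and 12.87 in sensitized dogs and 10.20, 10.51 and 12.36 in nonsensitized dogs. The difference was 0.85 ± 0.28, or 1.8-fold (adjusted p = 0.666), while a dimmer ICAM1 probe gave 0.26 ± 0.17. Of 10 genes of endothelial activation it alone had a higher mean at an unadjusted p below 0.05, beside 6.44% of all named genes. E-selectin (SELE) differed by 0.68 ± 0.39, and VCAM1, another adhesion molecule, by 0.10 ± 0.24. The median of this list was 0.07.

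Of 10 immediate early genes and feedback regulators tested, 4 had a higher sensitized mean at an unadjusted p below 0.05 and none a lower one, beside 6.44% and 1.87% of all named genes (median difference 0.32). Of these 10, 5 were named through the study's 24 hr table, for which the share with a higher mean was 12%. TNFAIP6, a secreted hyaluronan-binding protein induced by TNF and interleukin 1, spanned 9.79 to 12.27 in sensitized dogs with a median of 10.90. The nonsensitized dogs spanned 7.50 to 12.74 with a median of 8.48, so the highest level belonged to a nonsensitized dog. The mean difference was 1.67 ± 0.53, or 3.17-fold (adjusted p = 0.581). CEBPD, a transcription factor of acute inflammation, differed by 0.50 ± 0.22 and BCL3, a nuclear regulator of NF-κB, by 0.33 ± 0.15 (adjusted p = 0.796 for both).

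Of 14 innate cytokines tested, 3 had a higher sensitized mean at an unadjusted p below 0.05, beside 6.44% of all named genes. They were IL6, which passed the filter through the sensitized dogs alone, TNFSF13B and IL12A. IL6 levels ranged from 5.58 to 8.70 in sensitized dogs (median 6.97) and from 4.30 to 8.61 in nonsensitized dogs (median 5.00), where the signal was well above background in 3 of 6 dogs. The difference was 1.21 ± 0.53 (adjusted p = 0.796), and 0.70 ± 0.39 by a dimmer probe. TNFSF13B, the B-cell survival factor BAFF, differed by 0.48 ± 0.19, and by 0.36 ± 0.19 by a second probe (unadjusted p = 0.0689, limma). IL12A, a subunit of interleukins 12 and 35, differed by 0.43 ± 0.21. TNF itself differed by −0.13 ± 0.10. The type 2 and itch list, with 5 genes tested, had a median of 0.01 and no member at an unadjusted p below 0.05, and the Th2 cytokine IL13 differed by −0.01. PTX3, a soluble pattern receptor, had medians of 7.44 and 5.79 and a difference of 1.16 ± 0.49 (adjusted p = 0.796). TLR9, a receptor for unmethylated DNA, differed by −0.21 ± 0.10, and by −0.11 without nonsensitized dog 2802.

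Matrix-modifying genes formed a further group. Of 15 tested, 14 had a higher sensitized mean, 3 of them at an unadjusted p below 0.05, beside 643 and 79 of all 1227 named genes (median difference 0.18). In untreated skin the median of the same list was 0.21, with 3 members higher at an unadjusted p below 0.05, beside 13 of all 1227 named genes. ADAMTS4, an aggrecan-cleaving protease, ranged from 11.53 to 13.99 in sensitized dogs and from 9.09 to 14.40 in nonsensitized dogs, and the medians were 12.46 and 9.86. The difference was 1.65 ± 0.62 (adjusted p = 0.747). ADAMTS1, a related protease, differed by 0.55 ± 0.22, by 0.36 without sensitized dog 2838 and by 0.34 with slide as a fixed block. The metal-binding metallothioneins MT2A and MT1E differed by 1.09 ± 0.44 and 0.78 ± 0.37 (adjusted p = 0.775 and 0.796), and by 0.60 and 0.75 at the saline sites. With slide as a fixed block the allergen differences became 0.11 and 0.05. Nonsensitized dogs 2800 and 2802, whose saline arrays lay on slide 4, had the lowest MT2A levels also in untreated skin, at 13.81 and 13.47. Slide and dog cannot be told apart here.

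AVIL, an actin-regulating protein of the villin family, had the smallest p of the named genes past 1.5-fold. It ranged from 7.20 to 8.01 in sensitized dogs (median 7.43) and from 6.61 to 7.40 in nonsensitized dogs (median 6.84). The difference of 0.63 ± 0.17 (adjusted p = 0.389) was matched in direction by a second probe (0.47 ± 0.17). CRYGB, a lens crystallin, differed by 1.10 ± 0.35 (adjusted p = 0.583) at signals well above background in 5 of 6 sensitized and 3 of 6 nonsensitized dogs, and by 2.04 after quantile normalization. The prostaglandin E2 receptor PTGER4 differed by 0.22 ± 0.10 and the VEGF receptor KDR by 0.36 ± 0.14.

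The nonsensitized dogs were not alike. Among the genes picked by the naming rule, 25 had a higher sensitized mean at an unadjusted p below 0.05. Dog 2704 was at or above the lowest sensitized dog for 23 of them and dog 2716 for 19. The other 4 nonsensitized dogs reached that level for 1 to 8 of the 25. These counts only describe the 12 arrays, since the genes were selected on them for a higher sensitized mean, and CCL3, IL6, DBX1 and CRYGB passed the filter through the sensitized dogs alone. Over 18 of these genes, namely AVIL and those on the pathway lists, dog 2704 reached the sensitized median for 14 and dog 2716 for 13, but none of the other 4 dogs did so for any gene. Both dogs had their allergen arrays on slide 4, which also carried 2 of the nonsensitized dogs with low levels. Leaving out the allergen array of a single dog moved the difference between 1.12 and 1.76 for CCL2, between 1.30 and 2.35 for TNFAIP6 and between 1.26 and 2.32 for ADAMTS4. No named gene became a DEG in this way.

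The leading values were also taken with the other sites on the same slides. With slide as a fixed block the allergen difference was 1.13 for CCL2, 1.06 for CCL8, 1.53 for TNFAIP6 and 0.64 for ICAM1. The unadjusted p (limma) was then 0.0599, 0.085, 0.052 and 0.121, each above 0.05. It was 1.01 for ADAMTS4 (unadjusted p = 0.265, limma) and 0.34 for IL6 (unadjusted p = 0.647), both under the values without the block by more than 1.5 times. For AVIL it was 0.84 (unadjusted p = 0.00101, limma). Slide 5, with sensitized allergen arrays, also carried the saline array of nonsensitized dog 2716, where ADAMTS4 was 13.26 and IL6 7.67. Its saline levels in the other nonsensitized dogs were 9.09 to 9.90 for ADAMTS4 and 4.13 to 4.73 for IL6. The part of that array in the values with the block was not tested. The arrays had been scanned in sessions that held both groups. Session 2 (5 sensitized and 4 nonsensitized dogs) gave 1.12 for CCL2 and 1.27 for TNFAIP6, and session 3 (1 and 2 dogs) gave 1.68 and 2.38.

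**Figure D3:**
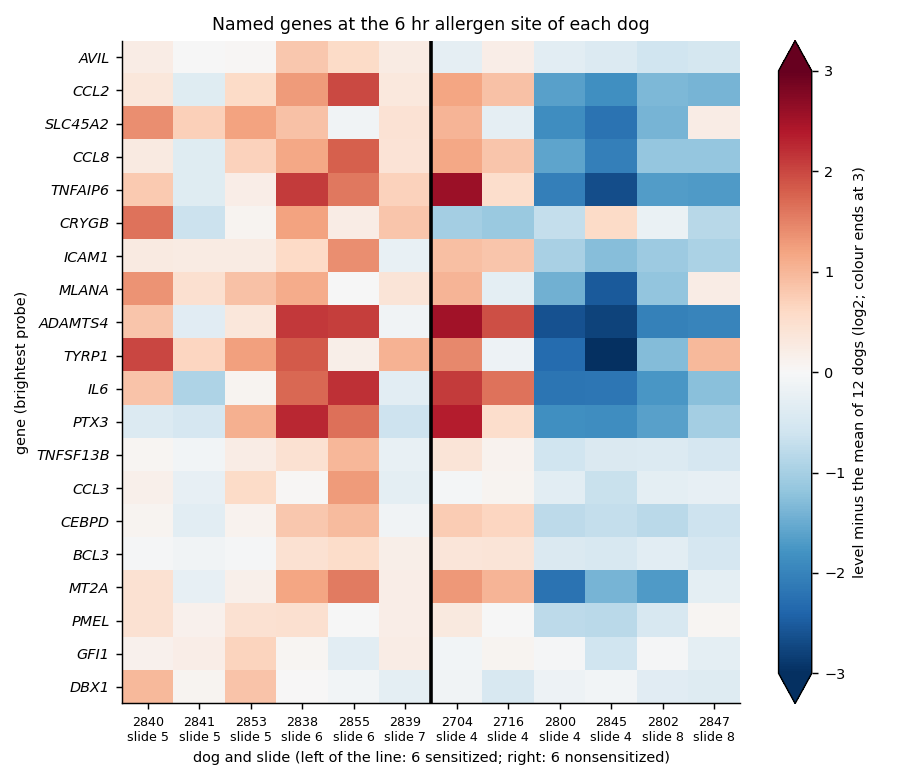
Level of named genes at the 6 hr allergen site of each dog minus the gene's mean over the 12 dogs (colour, log2), with dogs ordered by group and slide. The columns of nonsensitized dogs 2704 and 2716 resemble those of sensitized dogs for CCL2, ADAMTS4 and IL6, whereas dogs 2800, 2845, 2802 and 2847 are lower.

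The same groups were then compared at the saline sites of the same dogs at 6 hr, where 0 probes were called (limma) and 723 (1.72%) were higher and 674 (1.6%) lower at an unadjusted p below 0.05. At the saline sites the difference was −0.60 ± 0.42 for CCL2, −0.65 ± 0.42 for CCL8 and −0.42 ± 0.28 for ICAM1 (adjusted p = 1 for each), and the allergen-minus-saline difference was accordingly larger than that at the allergen sites alone. For CCL2, allergen exceeded saline by 2.16 to 4.03 in sensitized dogs and by 0.07 to 2.74 in nonsensitized dogs. The difference of these differences was 1.98 ± 0.59 for CCL2, 1.97 ± 0.59 for CCL8, 1.27 ± 0.40 for ICAM1 and 2.12 ± 0.75 for TNFAIP6. The adjusted p was 1 for each of the 4 genes with and without the dog as a block, and no identifier was a DEG in this comparison.

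Over all probes, 255 (0.606%) had a larger allergen-minus-saline difference in sensitized dogs at an unadjusted p below 0.05 and 160 (0.38%) a smaller one. Among named genes these counts were 45 (3.67%) and 3 (0.244%). Of the 10 immediate early genes and feedback regulators, 7 were in the first class and none in the second, and the list's median was 0.65 beside 0.03 over all named genes. The corresponding counts were 5 of 21 chemokine ligands (median 0.48) and 3 of 14 innate cytokines (median 0.22). Of these lists, 5, 5 and 3 members were named through the study's 24 hr table. That table was chosen on the same kind of difference in these dogs, so the counts are no independent evidence. At the saline sites the immediate early list had a median of −0.25, with 2 members lower at an unadjusted p below 0.05, beside 32 of all 1227 named genes. The transcription factor MYC, for example, had a difference of 0.75 ± 0.28 in this comparison against 0.34 ± 0.20 at the allergen sites alone. Its saline level was 11.05 in nonsensitized dog 2716, against 10.03 to 10.46 in the other nonsensitized dogs.

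The saline site of nonsensitized dog 2716 stood apart. Its CCL2 level was 13.70, against 11.18 to 11.88 in the other 5 nonsensitized dogs and 10.94 to 11.72 in the sensitized dogs, and IL6 reached 7.67 there. Without this array the saline difference was −0.24 for CCL2 and −0.17 for ICAM1, and the difference of differences was 1.62 for CCL2, 1.57 for CCL8, 1.02 for ICAM1 and 1.24 for IL6. For IL6 the value with all arrays was 1.79 ± 0.75.

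The study itself listed CCL2, CCL8, GFI1, DBX1, ZFAT and unnamed transcripts at 6 hr from these same arrays, so their values here, those of CCL2 and CCL8 above included, are no independent evidence. GFI1, a transcriptional repressor of blood cell development, had levels of 5.98 to 6.98 in sensitized and 5.70 to 6.39 in nonsensitized dogs, a difference of 0.32 ± 0.17 (adjusted p = 0.796) that was 0.21 without sensitized dog 2853 and 0.49 with slide as a fixed block. At the saline sites its groups separated in the opposite order, with 5.29 to 5.69 in sensitized and 5.74 to 6.29 in nonsensitized dogs (difference −0.56 ± 0.17, adjusted p = 1). The difference of differences of 0.88 ± 0.25 (adjusted p = 1) thus joined a positive and a larger negative part. DBX1, a homeobox gene, differed by 0.52 ± 0.13 (adjusted p = 0.32) near background, well above it in 5 of 6 sensitized and 1 of 6 nonsensitized dogs. ZFAT, a zinc finger gene, differed by −0.34 ± 0.13 (adjusted p = 0.771) at the allergen sites and by 0.37 ± 0.13 at the saline sites. Under alternative processing the allergen difference ranged from 0.09 to 0.91 for DBX1 and from −0.74 to −0.06 for ZFAT. Of the transcripts without a name, CO597689 was not well above background in any of the 6 sensitized dogs and was so in 5 of 6 nonsensitized dogs, through which it passed the filter. TC78107 differed by 0.66 ± 0.20 (adjusted p = 0.498).

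Pigment genes had a higher mean in the sensitized dogs at the untreated, 6 hr saline and both allergen sites. TYRP1 and MLANA, which mark melanocytes, and SLC45A2, a transporter needed for melanin synthesis, were among the 10 leading genes. TYRP1 ranged from 10.06 to 11.89 in sensitized dogs (median 11.01) and from 4.29 to 11.32 in nonsensitized dogs (median 9.16), and dog 2845 had the lowest level at both 6 hr sites, 4.29 at each. The difference at the allergen sites was 2.31 ± 0.88 (adjusted p = 0.768), against 1.89 at the saline sites, 1.07 in untreated skin and 0.87 at the 24 hr allergen sites (adjusted p = 0.506). Without the allergen array of dog 2845 the first of these was 1.42.

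MLANA differed by 1.40 ± 0.52 at the 6 hr allergen sites and by 1.10 at the saline sites. SLC45A2 was 2.83-fold higher at the allergen sites (adjusted p = 0.568), and its log2 difference at the saline sites was 1.23. For PMEL, a melanosome protein, the brighter probe gave 0.57 ± 0.26 and the other 2.16 ± 0.78. MITF and MC1R, also on the melanocyte list, differed by 0.06 and 0.09. The allergen-minus-saline difference of TYRP1, MLANA and SLC45A2 was 0.42 ± 1.24, 0.30 ± 0.73 and 0.27 ± 0.67. With slide as a fixed block the allergen difference of TYRP1 became 0.03, that of MLANA 0.10, that of SLC45A2 0.34 and that of PMEL 0.10. Slide and dog cannot be told apart in these values, since the saline arrays on slide 4 were those of dogs 2800, 2802 and 2845. In untreated skin, on slide 7, TYRP1 was 8.81, 9.43 and 9.76 in these dogs. On the same slide it was 12.13 and 10.74 in nonsensitized dogs 2704 and 2716.

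**Figure D4:**
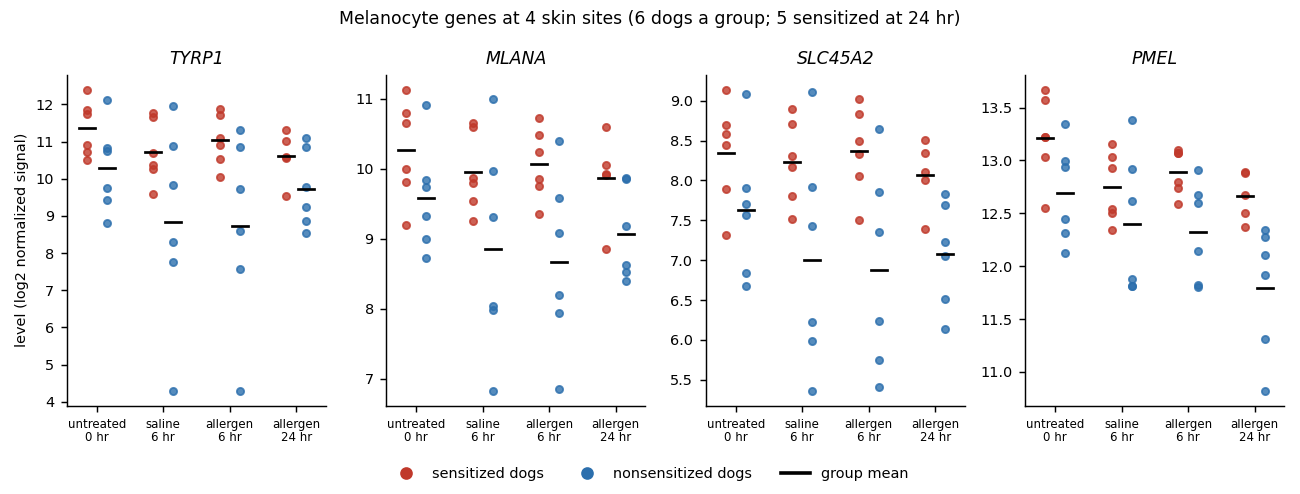
Levels (y axis, log2 normalized signal) of 4 melanocyte genes at 4 skin sites, with 1 point per dog and bars at the group means. The sensitized means were higher at each site, and the nonsensitized dogs were more spread, with dog 2845 at 4.29 for TYRP1 at both 6 hr sites.

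Of the 1227 named genes, 643 had a higher and 584 a lower mean in sensitized dogs, but only 3 had a mean at least 1.5-fold lower in sensitized dogs, and none of them had an unadjusted p below 0.05. AOX4, an aldehyde oxidase, had medians of 11.65 and 12.04 and a difference of −0.81 ± 0.41 (adjusted p = 0.796). It rested on sensitized dog 2855, whose level was 8.93, and was −0.35 without that array. DNASE1, a secreted nuclease, differed by −0.68 ± 0.39. MYOZ1, a protein of the skeletal muscle Z-disc, differed by −1.07 ± 0.99 through nonsensitized dog 2704, whose level was 10.50, against 5.15 to 5.90 in the other nonsensitized dogs, and was −0.25 without that array. The muscle genes MYH1 and MYL2 were likewise highest in that dog, at 7.91 and 9.33. Within 1.5-fold, the cathelicidin CAMP differed by −0.29 ± 0.10, the cytotoxic effector PRF1 by −0.27 ± 0.12 and FLT3, a receptor of dendritic cell development, by −0.46 ± 0.22. With slide as a fixed block these were −0.18, −0.17 and −0.08, and DNASE1 was −0.31. PRF1 was −0.14 without nonsensitized dog 2802.

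Barrier genes differed little at this time. All 13 genes of the cornified envelope and filaggrin processing lay between −0.29 and 0.05, with a median of −0.12 and no member at an unadjusted p below 0.05. A lower sensitized mean was seen for 11 of them, beside 584 of all 1227 named genes. FLG2, a filaggrin-like protein, differed by −0.20 ± 0.22 and the protease inhibitor SPINK5 by −0.28 ± 0.15. The suprabasal keratinocyte markers had a median of −0.20 with 0 of 4 at an unadjusted p below 0.05. The medians were −0.02 for 7 epidermal lipid genes, −0.00 for 10 junction genes and −0.13 for 15 MHC genes. A lower mean was seen for 4 of the suprabasal markers, 4 of the lipid genes, 5 of the junction genes and 13 of the MHC genes.

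Markers of infiltrating cells moved little as whole lists. The 7 macrophage and monocyte genes had a median of 0.16 with 0 at an unadjusted p below 0.05, and their mean level spanned 8.80 to 9.60 in sensitized and 8.35 to 10.02 in nonsensitized dogs. At the saline sites the median of this list was −0.38, and for allergen minus saline it was 0.52, beside 0.48 for the chemokine ligands. In the latter comparison 1 of the 7 genes was higher at an unadjusted p below 0.05, beside 3.67% of all named genes. FCGR1A, the high-affinity IgG receptor, had the largest difference of the list at the allergen sites, 0.84 ± 0.45. The 6 T and NK cell genes had a median of −0.01, the 5 mast cell genes −0.12, the 7 dendritic and Langerhans cell genes −0.11 and the 4 granulocyte genes −0.08. The alarm protein S100A8, an abundant granulocyte product, differed by 0.74 ± 0.66. The part that infiltrating cells had in the differences above was not tested. No gene was tested on the lists for B cells and erythrocytes, and none was named on those for sebaceous gland, sweat gland, activated keratinocytes or sex-linked genes.

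**Figure D5:**
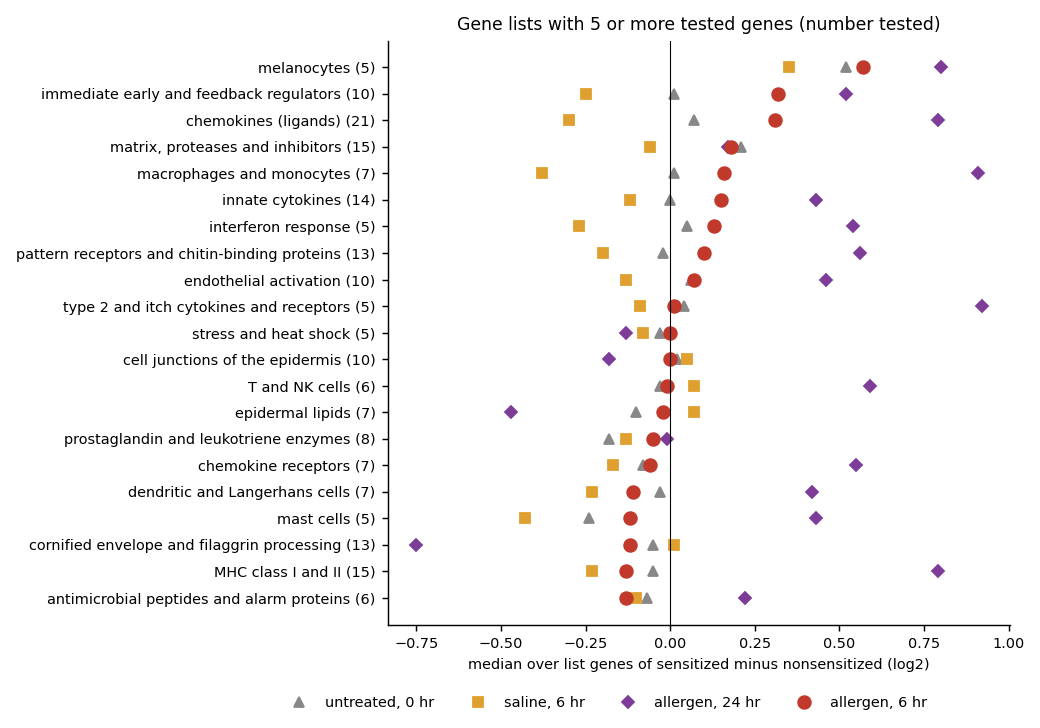
Median over each gene list of the difference between sensitized and nonsensitized dogs (x axis, log2) at 4 skin sites, for lists with at least 5 tested genes (number in brackets). Chemokine ligands lay at −0.30 at the saline, 0.31 at the 6 hr allergen and 0.79 at the 24 hr allergen sites, while the cornified envelope list was at −0.12 at 6 hr and −0.75 at 24 hr allergen sites.

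In untreated skin the differences of the leading inflammatory genes were smaller, and 1 probe (0.00238%) was called there, with 792 (1.88%) higher and 486 (1.15%) lower at an unadjusted p below 0.05. The difference was 0.72 ± 0.42 for CCL2, 0.56 ± 0.42 for CCL8, 0.06 for TNFAIP6, 0.03 for ICAM1 and −0.12 for IL6. Subtracting the untreated from the allergen difference gave 0 DEG (limma), with 176 probes (0.418%) higher and 196 (0.466%) lower at an unadjusted p below 0.05. At the 24 hr allergen sites, where 11 arrays remained, 1616 probes (3.84%) were called higher and 1579 (3.75%) lower. These calls are without a slide term, and 4 of the nonsensitized arrays lay on slide 1, which held no sensitized allergen array. The differences at that time were 2.48 for CCL8 (adjusted p = 8.97e-05), 3.18 for PTX3 (adjusted p = 2.59e-05), 2.09 for CCL2 (adjusted p = 0.000577), 2.65 for TNFAIP6 (adjusted p = 0.000609) and 1.27 for AVIL (adjusted p = 4.9e-06). The change between the times was 2.02 for PTX3 (adjusted p = 0.0722), 1.16 for CCL8 (adjusted p = 0.224) and 0.71 for CCL2 (adjusted p = 0.483). Of the genes named above, 4 had an adjusted p below 0.05 for this change, namely AOX4 at −2.39 (adjusted p = 0.0258), CCR4 at 0.79 (adjusted p = 0.0148), TNF at 0.59 (adjusted p = 0.0284) and TLR9 at 0.48 (adjusted p = 0.0495).

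Over all identifiers, 620 had a difference that was more positive at 24 hr than at 6 hr and 504 a more negative one by the DEG criteria (624 and 522 probes, 1.48% and 1.24%). With the dog as a random block these were 2410 and 1357. The allergen arrays of the 2 times shared only slide 8, and with slide as a fixed or random block 4 and 0 identifiers remained past the criteria. Without the 6 hr allergen array of nonsensitized dog 2704 there were 72 and 72, and without that of sensitized dog 2839 there were 1491 and 638.

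Some of the smallest p-values belonged to transcripts with no name here, singled out after their values were seen. CO601139 ranged from 5.00 to 6.66 in sensitized and from 6.70 to 7.29 in nonsensitized dogs, a difference of −1.15 ± 0.25 (adjusted p = 0.13), with −0.87 at the saline sites, −0.89 in untreated skin and −0.33 at the 24 hr allergen sites. ENSCAFT00000034155 ranged from 6.79 to 7.55 against 5.71 to 6.32, a difference of 1.09 ± 0.24 (adjusted p = 0.13), with 0.50 at the saline sites, 0.92 in untreated skin and −0.29 at the 24 hr allergen sites. Both were called with the dog as a random block, at adjusted p of 0.0263 and 0.0497. APRT, an enzyme of adenine salvage, gave 0.51 ± 0.11 and 0.50 ± 0.11 in a pair of probes (adjusted p = 0.13 for each), below the 1.5-fold limit, with 0.42 and 0.43 at the saline sites and 0.38 and 0.40 in untreated skin.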

How the data were processed

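The 60 skin samples of 12 dogs were each run on a one-colour Agilent array. Per the labels, the authors deposited scanner output from Feature Extraction 10.7.3.1, whose intensity column is background-corrected but unscaled across arrays, and the value table of the series repeats it exactly. The array design header names the build canFam2.

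Here, spots flagged as outliers were dropped, and a probe entered the test when well above background on at least 5 of 6 arrays of either 6 hr allergen group. Signals were normalized by variance stabilization, as in the study's methods. The model of the vsn package was coded anew, since it was not installed, and checked with simulated arrays. Repeated spots were averaged per probe. limma 3.58.1 (statmod 1.5.0, R 4.3.3) fitted 10 group means over 59 arrays, unpaired and two-sided. As in the study, specimen 14 (dog 2839, 24 hr allergen), which had degraded RNA, was left out. P-values were adjusted by Benjamini-Hochberg over 42086 probes, also for differences of differences. With 6 dogs a group, precision is limited by their number. The standard errors and p-values rest on a spread pooled over the 10 groups, with the sites of a dog taken as independent. They can therefore be too small for genes whose levels were widely spread among dogs at the allergen sites, such as TNFAIP6 and ADAMTS4. Tables and figures used Python 3.11.15, pandas 2.3.3, numpy 2.4.6 and matplotlib 3.10.9.

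The labels give each dog's number, so allergen and saline sites are paired by animal. Deviations from group means of same-dog sites at 6 hr correlated with a median r of 0.503 over 12 pairs (lowest 0.323), against −0.062 for 264 pairs of different dogs.

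Identifiers were named through a RefSeq table (1080, assembly UU_Cfam_GSD_1.0, names only), the identifier column of the study's 24 hr gene table (510) or its printed tables (2), 1592 of 54633 in all. A gene is reported by its brightest probe. The text names the 10 named genes with the smallest p in each direction among those past 1.5-fold, up to 3 genes of each list by p, and the study's 6 hr list, with further list members given for contrast. The lists, members and tests were chosen with earlier results of these data known, so lists are described by counts and medians only. The study's tables of fold changes and p-values were not used. Alternatives covered scaling, filters, samples, slide, scan session, dog, thresholds and single arrays.

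The values of 1 gene are not reported here.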

Additional observations from a re-analysis of the deposited data

Results flagged for a closer look

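In 70 groups of 6 dogs examined for a single far value, at the 6 hr allergen sites, 3 were found, and chance marks about 1 in 20. AOX4 was 8.93 in sensitized dog 2855, with the nearest of the other 5 at 11.56. MYOZ1 was 10.50 in nonsensitized dog 2704, with the nearest at 5.90. PRF1 was 6.40 in nonsensitized dog 2802, with the nearest at 5.78. The difference between sensitized and nonsensitized dogs changed from 6 hr to 24 hr at the allergen sites for AOX4 (−2.39, limma adjusted p = 0.0258), CCR4 (0.79, adjusted p = 0.0148) and TLR9 (0.48, adjusted p = 0.0495). TNF, which was not among the genes examined for far values, changed by 0.59 (adjusted p = 0.0284). Over all identifiers the change between the times gave 1124 calls, but 0 with slide as a random block, 0 with scan session as a fixed block and 4, all in the positive direction, with slide as a fixed block.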

How the results depend on the processing

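At the allergen sites the count of DEG was 0, and it was 0 in each alternative except these. It was 66 at an unadjusted p below 0.002 with 1.5-fold, 2501 at an unadjusted p below 0.05, 3 with array weights over 60 arrays and 1 in scan session 3 alone. With the replicate block, the dog as a random term, it was 14. Leaving out 1 allergen array gave 0 to 3, with 3 without sensitized dog 2839. For allergen minus saline (0) the counts were 10, 408 and, in session 3 alone, 1. For allergen minus untreated skin (0) they were 1, 369 and 1. Leaving out 1 array gave 0 to 0 in both, and no paired fit gave a call in them.

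The change from 6 hr to 24 hr (1124 DEG) varied most. It was 10303 at an unadjusted p below 0.05, 4504 with 60 arrays, 4763 with array weights, 572 without the filter on dim probes, 4 and 0 with slide as a fixed and a random block, and 0 with scan session as a fixed block. The session 2 arrays gave 511 and those of session 3 gave 1. The replicate block gave 3767 as a random and 3942 as a fixed term. Leaving out 1 array gave 144 (nonsensitized dog 2704) to 2129 (sensitized dog 2839), with 295 without sensitized 2840, 290 without 2841, 601 without 2853, and 529, 2007 and 505 without nonsensitized 2716, 2800 and 2847. The cause was not tested.

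Of 1839 values of single genes under alternatives, 19 changed sign. At the allergen sites, session 3 alone gave −0.02 for CCL3 and 0.03 for CCR4. For allergen minus saline, TYRP1 was −0.39 with array weights, −0.26 with slide fixed, −0.70 in session 3, −0.47 without the allergen array of nonsensitized dog 2845 and −0.20 without the saline array of dog 2704. MLANA was −0.00, −0.13, −0.24, −0.07 and −0.13 in that order, and SLC45A2 was −0.14 with slide fixed, −0.22, −0.03 and −0.15. Leaving out 1 array moved these values between −0.47 and 1.33 for TYRP1, −0.13 and 0.70 for MLANA and −0.15 and 0.62 for SLC45A2. At the saline sites AVIL was 0.02 and 0.00 without nonsensitized dogs 2716 and 2845, and ADAMTS4 was 0.24 without dog 2716 (range −0.60 to 0.24). The scan session and saline-array settings were chosen after seeing the data. Brightness near background limited, among others, CCL3, DBX1, IL6 and CRYGB in nonsensitized dogs, TYRP1 in dog 2845, and ZFAT and CO597689 in sensitized dogs.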
